A study of Mus musculus with 9 samples.

Results

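The Pax family is the set of 9 mouse genes, *Pax1* to *Pax9*, that encode transcription factors sharing the paired box, a DNA-binding domain. The members were taken by symbol, and all 9 were found among the 24330 genes used from the deposited table. Pax proteins mark out regions of the early embryo in which a tissue is being specified, and they are often expressed in an organ before it takes shape. The family falls into subfamilies of related genes. *Pax1* and *Pax9* act in the sclerotome (the part of the somite that gives rise to vertebrae and ribs) and in the pharyngeal pouches. *Pax3* and *Pax7* act in the dorsal neural tube, the neural crest and the dermomyotome, from which trunk muscle arises. *Pax6* patterns the eye, the forebrain and the ventral neural tube, and its relative *Pax4* acts in pancreatic endocrine cells and the retina. *Pax2*, *Pax5* and *Pax8* act at the boundary of midbrain and hindbrain, and *Pax2* and *Pax8* also in the early kidney, the ear and, for *Pax8*, the thyroid. Mice without functional *Pax3*, the Splotch mutants, fail to close the neural tube.

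Expression was measured by poly-A RNA-seq in whole E9.5 mouse embryos of mixed C57Bl/6J x 129S2 strain, all female by their labels. Wild-type (WT) embryos were compared with embryos lacking SR-B1, a lipoprotein receptor encoded by *Scarb1*, that were either morphologically normal (KO-N) or had neural tube defects (KO-NTD). Both knockout groups carried the same *Scarb1* null alleles, came from intercrosses of heterozygotes and differed by their appearance. Each group held 3 libraries, each made from a pool of 3 embryos, and the deposited tables gave 1 value per group that the authors had combined over libraries. The spread between libraries was therefore not measured here, and no p-value was computed.

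Levels are given in FPKM, fragment counts scaled by transcript length and library size, which is per length and so can be set side by side between genes. The KO-N and KO-NTD values came with a lower and an upper confidence bound from the authors' program. A log2 fold change is log2 of the ratio of FPKM + 0.1, and its 95% interval was built from these bounds. Such an interval carries only the error that the program assigned to each value. WT values were given without bounds and only for genes that the authors had marked as differing in a comparison with WT, which included 4 Pax genes (*Pax1*, *Pax3*, *Pax6* and *Pax7*). For the other 5 members the only further reference was a column headed Control, and neither labels nor methods tell which libraries went into it. The targeted gene *Scarb1* was at 17.1 FPKM in WT, 3.34 FPKM in KO-N and 3.12 FPKM in KO-NTD. In bulk samples, fewer cells of a type and less RNA per cell cannot be told apart.

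Because the paired box is shared, reads of 50 bases could in principle fit more than 1 member, so the transcripts were compared before the values were used. Among all annotated transcripts of the 9 genes, no stretch of 50 bases was present in more than 1 Pax gene. With up to 2 mismatches allowed, none of the 36 pairs shared such a stretch between their longest coding transcripts, and the closest pair, *Pax2* and *Pax8*, still differed at 3 of 50 bases. The most alike 90 coding bases of 3 pairs are shown in lower case with the differing bases in capitals, 5′ to 3′ on the coding strand, because they are the places where reads of 1 member would be hardest to tell from reads of another.
*Pax1*: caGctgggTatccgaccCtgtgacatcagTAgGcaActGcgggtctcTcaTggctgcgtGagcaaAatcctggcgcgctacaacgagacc
*Pax9*: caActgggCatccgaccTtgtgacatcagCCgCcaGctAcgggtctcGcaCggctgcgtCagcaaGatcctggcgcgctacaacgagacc
*Pax3*: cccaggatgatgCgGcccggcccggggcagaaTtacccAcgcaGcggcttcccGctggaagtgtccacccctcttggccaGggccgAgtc
*Pax7*: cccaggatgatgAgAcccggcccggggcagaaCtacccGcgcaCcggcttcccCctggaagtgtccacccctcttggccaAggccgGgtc
*Pax2*: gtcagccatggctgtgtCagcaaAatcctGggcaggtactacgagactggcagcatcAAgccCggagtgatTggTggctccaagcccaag
*Pax8*: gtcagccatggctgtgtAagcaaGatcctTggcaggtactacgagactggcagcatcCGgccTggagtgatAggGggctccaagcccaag

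The *Pax1* and *Pax9* windows were identical at 78 of 90 bases (86.7%), and 11 of their 12 differences fell at the third base of a codon. The *Pax3* and *Pax7* windows, and likewise the *Pax2* and *Pax8* windows, were identical at 82 of 90 bases (91.1%), with 6 of 8 differences at the third base. These sequences come from the GENCODE M21 transcripts of the mm10 build. *Pax4* and *Pax6* were less alike, with 71.1% identity in their best window. Stretches shared exactly with genes outside the family, on either strand, made up at most 7.02% of those of a member, in *Pax5*. The annotation places other genes on the opposite strand over parts of *Pax1* (3.07% of its stretches of 50 bases, with AI646519), *Pax5* (6.20%, with 5730488B01Rik), *Pax8* (4.43%, with Gm13415) and *Pax9* (2.77%, with Slc25a21). The libraries were strand-specific, but whether strand was used in counting is stated neither in the labels nor in the study's methods. AI646519 was at 0.279 FPKM in KO-NTD against 0.269 FPKM in KO-N, far under the levels of *Pax1*. 5730488B01Rik was at 1.03 FPKM in KO-NTD against 0.855 FPKM in KO-N, and Slc25a21 at 1.10 against 1.36 FPKM, levels that are a sizeable part of those of *Pax5* and *Pax9*. Gm13415, which overlaps *Pax8*, had no value. The share of *Pax5*, *Pax8* and *Pax9* reads that could belong to the genes on the opposite strand was not tested.

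The genes lie apart from one another in the genome (mm10, GENCODE M21). *Pax1* spans chr2:147361925-147393295 on the forward strand, *Pax6* chr2:105668900-105697364 on the forward strand and *Pax8* chr2:24420560-24475599 on the reverse strand. *Pax3* spans chr1:78101267-78197134, *Pax5* chr4:44524757-44710487, *Pax7* chr4:139737062-139833528 and *Pax4* chr6:28442334-28449353, all on the reverse strand. *Pax2* spans chr19:44756045-44837871 and *Pax9* chr12:56691767-56712822, both on the forward strand. Members of a subfamily lie on different chromosomes, so that no pair of them can share 1 locus in the counting.

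**Figure D1:**
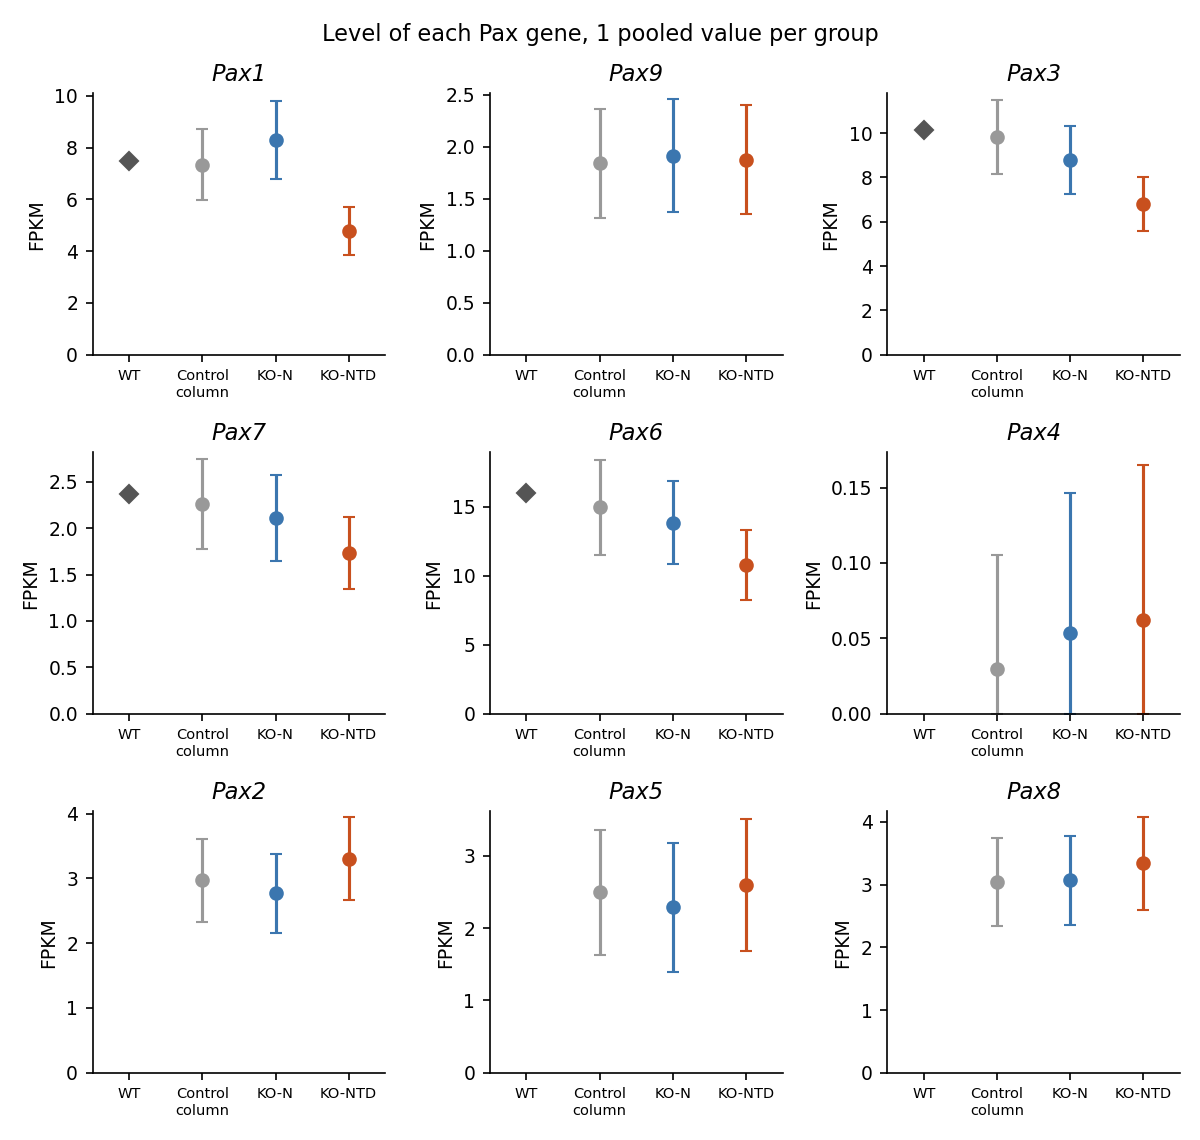
Level of each Pax gene in FPKM (vertical axis, from 0, its own scale in each panel) in WT, the column headed Control, KO-N and KO-NTD embryos. Points are the authors' single value per group, bars run from their lower to their upper confidence bound, and WT diamonds have no bounds; *Pax1* is the member whose KO-NTD and KO-N bars do not meet.

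Of the 9 genes, 8 averaged 0.5 FPKM or more over the 2 knockout groups, and *Pax4* did not. *Pax6* was the highest in both groups, at 10.8 FPKM in KO-NTD against 13.8 FPKM in KO-N, and made up 30.6% and 32.1% of the summed Pax level. *Pax3* followed, then *Pax1*, *Pax8*, *Pax2* and *Pax5*. *Pax9* and *Pax7* came next, with *Pax9* above *Pax7* in KO-NTD and below it in KO-N. *Pax4* was last in every column. The neighbours from *Pax8* down to *Pax7* or *Pax9* did not differ beyond their intervals in either group. *Pax3* exceeded *Pax1* by 2.03 FPKM in KO-NTD (95% interval 0.54 to 3.53), whereas in KO-N the difference of 0.50 FPKM had an interval from -1.59 to 2.59. In the column headed Control the difference was 2.49 FPKM (0.38 to 4.60). Whether these differences varied between the columns was not tested. Summed over the family, the level came to 35.3 FPKM in KO-NTD against 43.1 FPKM in KO-N, a difference of -18.2%.

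Between the phenotypes, 5 of the 8 members past the level filter were lower in KO-NTD than in KO-N and 3 were higher. The all-gene median was below 0 (-0.02), so a majority of all genes past the filter were lower too. The exact share was not computed. Counts of lower genes in the lists below stand against the same majority. The study applied a log2 fold of 0.4 when filtering its regulatory network, and called differential expression by a separate test. Among the members, only *Pax1* passed this fold. That is 1 of 8 members at or below -0.4, where 3.77% of the 13569 genes past the level filter were, and 0 of 8 at or above 0.4, where 3.41% of genes were. At a log2 fold of 0.3, *Pax3* and *Pax6* also passed, making 3. The interval lay below 0 for 2 members, *Pax1* and *Pax3*, against 2.53% of all genes with an interval, and above 0 for none, against 2.01%. The median log2 fold change was -0.15 over the 8 members and -0.02 over all genes past the filter. With folds centred on that all-gene median, the interval lay below 0 for *Pax1* alone among the members.

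**Figure D2:**
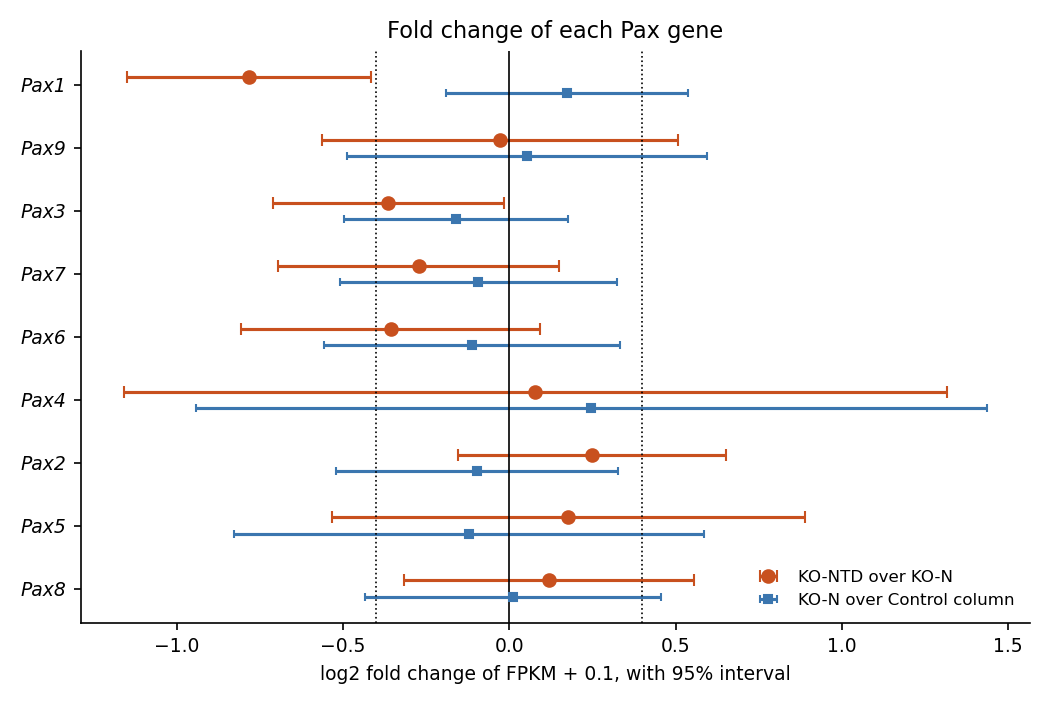
Log2 fold change (horizontal axis, of FPKM + 0.1) of each Pax gene for KO-NTD over KO-N (circles) and KO-N over the column headed Control (squares), which share the KO-N value. Bars are 95% intervals and dotted lines mark -0.4 and 0.4; the KO-NTD over KO-N bar of *Pax1* lies wholly below -0.4, and every KO-N over Control bar holds 0.

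*Pax1*, which is expressed in the sclerotome and is needed for normal vertebrae, showed the widest separation. It was at 4.77 FPKM in KO-NTD (bounds 3.85 to 5.69), 8.29 FPKM in KO-N (bounds 6.79 to 9.79) and 7.49 FPKM in WT. The KO-NTD value was low and its bounds did not meet those of KO-N. The KO-N value was above WT, but the WT value lay inside the KO-N bounds. Relative to KO-N, the KO-NTD level changed by -42.4%, a log2 fold change of -0.78 (95% interval -1.15 to -0.42). Of all genes past the filter, 1.11% had a lower fold.

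*Pax9*, the other member of this subfamily, has overlapping roles with *Pax1* in the sclerotome and is needed in the pharyngeal pouches, teeth and limbs. It was at 1.87 FPKM in KO-NTD (bounds 1.35 to 2.40) and 1.91 FPKM in KO-N (bounds 1.37 to 2.46). These values were nearly the same, and the log2 fold change was -0.03 (95% interval -0.56 to 0.51). The interval leaves room for a difference in either direction. The fold of *Pax1* was lower than that of *Pax9* by a log2 difference of -0.76 (95% interval -1.40 to -0.11). Of 5 pairs within subfamilies compared in this way, this was the pair whose interval left out 0. *Pax1* and *Pax9* together stood at 10.2 FPKM in KO-N and at 6.65 FPKM in KO-NTD, a difference of -34.8%.

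Genes of the sclerotome lay on the same side as *Pax1*. Of the 15 genes listed for this tissue, all past the filter, 13 were lower in KO-NTD than in KO-N, with a median log2 fold change of -0.28 against -0.02 over all genes, and 4 had intervals below 0 and none above. With the column headed Control as reference the median was -0.18, as the summed level of the list was 299 FPKM in KO-N and 279 FPKM in that column. *Nkx3-2*, a homeobox gene that Pax1 and Pax9 activate in the mouse sclerotome, was at 0.722 FPKM in KO-NTD against 1.37 FPKM in KO-N (log2 fold change -0.84, 95% interval -1.46 to -0.23). *Uncx*, a homeobox gene of the caudal sclerotome, was at 2.35 and 4.07 FPKM (-0.76, -1.16 to -0.37). *Meox2*, a homeobox gene of somites, was at 2.66 and 3.90 FPKM (-0.54, with -0.07 as the upper end of its interval). For all 3, which were named for the size of their fold, the KO-NTD value was the low one.

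*Pax3*, a regulator of the dorsal neural tube, the neural crest and muscle precursors, was the second of the members with an interval below 0. It was at 6.81 FPKM in KO-NTD (bounds 5.59 to 8.02), 8.79 FPKM in KO-N (bounds 7.28 to 10.3) and 10.1 FPKM in WT. The groups were ordered KO-NTD, KO-N, WT from low to high by value. The bounds of the knockout groups overlapped, and the WT value lay inside the KO-N bounds. Between KO-NTD and KO-N the log2 fold change was -0.36 (95% interval -0.71 to -0.02), a difference in level of -22.5%. Centred on the all-gene median, the fold was -0.34 and its interval held 0. The study, by its own test of the sequencing data, reported *Pax3* as downregulated in KO-NTD against both WT and KO-N. By real-time PCR in independent samples, it found no statistical difference in *Pax3* mRNA.

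*Pax7*, which shares its expression domains in part with *Pax3* and later marks muscle stem cells, had the same order of groups at a lower level. It was at 1.73 FPKM in KO-NTD (bounds 1.34 to 2.12), 2.11 FPKM in KO-N (bounds 1.64 to 2.58) and 2.37 FPKM in WT. The WT value again lay inside the KO-N bounds. Between KO-NTD and KO-N the log2 fold change was -0.27 (95% interval -0.70 to 0.15), so the interval held 0. The folds of *Pax3* and *Pax7* differed by -0.09 (95% interval -0.64 to 0.46). Summed, the pair was at 8.54 FPKM in KO-NTD against 10.9 FPKM in KO-N.

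In the dorsal neural tube and neural crest list, 14 of 17 genes were lower in KO-NTD, 2 had intervals below 0 and none above, and the median log2 fold change was -0.08. *Zic1*, a zinc-finger gene of the dorsal neural tube, was at 8.82 FPKM in KO-NTD against 16.1 FPKM in KO-N and 16.7 FPKM for WT (log2 fold change over KO-N -0.86, 95% interval -1.19 to -0.54). *Gdf7*, a roof plate signal of the BMP class, was at 0.790 and 1.26 FPKM (-0.61, -1.19 to -0.03). *Mitf*, the regulator of pigment cells, had a fold of -0.29 with an interval from -0.81 to 0.24. Most genes of the list thus lay close to the all-gene median, and *Zic1* well below it. The *Gdf7* interval ended next to that median, and *Gdf7* was at 0.913 FPKM in the column headed Control.

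In the dermomyotome and early muscle list, 9 of 13 genes were lower, 2 had intervals below 0 and none above, and the median was -0.21. *Myog*, which drives the differentiation of muscle cells, was at 0.746 FPKM in KO-NTD against 1.82 FPKM in KO-N (log2 fold change -1.19, 95% interval -1.82 to -0.55). *Dmrt2*, a dermomyotome gene, was at 2.25 and 3.16 FPKM (-0.47, -0.94 to -0.01). *Fgfr4*, a receptor gene that Pax3 activates in mouse muscle precursors, was at 1.44 and 1.11 FPKM (0.34, -0.19 to 0.87). The named muscle genes lay on both sides of 0, but the only positive fold among them had an interval that held 0.

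*Pax6*, the regulator of eye and forebrain development, was at 10.8 FPKM in KO-NTD (bounds 8.26 to 13.3), 13.8 FPKM in KO-N (bounds 10.8 to 16.9) and 16.0 FPKM in WT. KO-NTD was again the lowest and WT the highest, with the WT value inside the KO-N bounds. Between KO-NTD and KO-N the log2 fold change was -0.36 (95% interval -0.81 to 0.09), close in size to that of *Pax3* but with wider bounds, so that the interval held 0. The antisense gene *Pax6os1*, which overlaps its 5′ end, was at 0.0305 FPKM in KO-NTD against 0.0229 FPKM in KO-N. *Elp4*, the neighbour whose row shares the locus field of *Pax6*, was at 8.14 FPKM and 8.36 FPKM.

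*Pax4*, which specifies insulin-producing cells later in development, was at 0.0621 FPKM in KO-NTD, 0.0536 FPKM in KO-N and 0.0295 FPKM in the column headed Control. The lower bound was 0 in all 3 columns, so that *Pax4* was not separated from 0 at this depth, and a difference was not detectable.

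Of 17 eye and forebrain genes, 15 passed the filter, 14 of these were lower in KO-NTD, 5 had intervals below 0 and none above, and the median log2 fold change was -0.34. *Six6*, a homeobox gene of the optic vesicle, was at 0.926 FPKM in KO-NTD against 1.60 FPKM in KO-N and 1.64 FPKM for WT (log2 fold change over KO-N -0.72, 95% interval -1.27 to -0.17). *Aldh1a3*, which makes retinoic acid in the eye, was at 3.67, 6.03 and 4.87 FPKM in that order (-0.70, -1.09 to -0.31). *Lhx2*, a LIM homeobox gene needed for eye formation, was at 7.88, 11.4 and 11.3 FPKM (-0.53, -0.86 to -0.19). KO-NTD was below both other groups for each of these genes. They were named for the size of their fold, and WT values were given only for genes marked as differing from WT. This order is therefore set in part by how the genes were chosen.

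In the pancreas list, 5 of 9 genes passed the filter, 4 of them were lower, 1 had an interval below 0, and the median was -0.39 (-0.21 with the column headed Control as reference). *Neurod1*, which is used by neurons as well as by endocrine cells, was at 0.833 FPKM in KO-NTD against 1.87 FPKM in KO-N (-1.08, -1.69 to -0.46). *Nkx2-2*, also shared with neural tissue, had a fold of -0.39 (-0.92 to 0.15), with an interval that held 0.

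*Pax2*, *Pax5* and *Pax8* were all higher in KO-NTD than in KO-N, none beyond its interval. *Pax2*, which is needed for the kidney, the optic nerve and the inner ear, was at 3.31 FPKM in KO-NTD (bounds 2.67 to 3.94) and 2.77 FPKM in KO-N (bounds 2.15 to 3.38), a log2 fold change of 0.25 (95% interval -0.15 to 0.65). *Pax5*, a midbrain gene in the embryo and the commitment factor of B cells later, was at 2.60 FPKM (bounds 1.69 to 3.51) and 2.29 FPKM (bounds 1.39 to 3.18), a fold of 0.18 (-0.53 to 0.89). *Pax8*, the regulator of thyroid follicular cells, was at 3.34 FPKM (bounds 2.60 to 4.08) and 3.06 FPKM (bounds 2.36 to 3.77), a fold of 0.12 (-0.32 to 0.56).

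The 3 folds did not differ from one another beyond their intervals. The difference was 0.07 between *Pax2* and *Pax5* (95% interval -0.75 to 0.89), 0.13 between *Pax2* and *Pax8* (-0.46 to 0.72) and 0.06 between *Pax5* and *Pax8* (-0.78 to 0.89). Their summed level was 9.24 FPKM in KO-NTD against 8.12 FPKM in KO-N, a difference of 13.8%, whereas each of the other subfamilies was lower in KO-NTD. As a share of the summed Pax level they made up 26.2% in KO-NTD and 18.8% in KO-N, and *Pax1* and *Pax9* 18.8% and 23.7%. A share moves when any member of the sum moves. No sum carries an interval, and 1 member can set it. *Pax9* had a fold of -0.03, and *Pax4* was not separated from 0 FPKM.

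Among the tissues of these 3 members, the midbrain-hindbrain boundary, early kidney, and pharyngeal pouch and thyroid lists were spread on both sides of 0. Most otic genes were lower in KO-NTD. At the midbrain-hindbrain boundary, 4 of 11 genes were lower in KO-NTD, none had an interval that left out 0, and the median log2 fold change was 0.06 (-0.06 with the column headed Control as reference). *En1* and *En2*, engrailed genes that Pax2 and Pax5 help to activate, had folds of 0.31 (95% interval -0.06 to 0.68) and -0.31 (-0.67 to 0.04), and *Lmx1b*, a LIM homeobox gene of the boundary, of -0.34 (-0.84 to 0.15). The named boundary genes thus lay on both sides of 0.

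In the intermediate mesoderm and early kidney list, 7 of 16 genes were lower, 3 had intervals below 0 and 2 above, and the median was 0.08. *Lhx1*, which is needed for the nephric duct, was at 1.88 FPKM in KO-NTD against 1.18 FPKM in KO-N (log2 fold change 0.63, 95% interval 0.12 to 1.13). *Hoxd11*, a posterior Hox gene that acts with Pax2 and Eya1 in mouse kidney precursors, was at 1.02 and 2.68 FPKM (-1.31, -1.81 to -0.82). The 2 genes named here thus lay on opposite sides of 0, and no split of the list by duct or position was tested.

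The otic list had 8 of 10 genes past the filter lower, 1 interval below 0 and a median of -0.10. *Sox8* was at 1.15 FPKM in KO-NTD against 2.08 FPKM in KO-N (-0.80, -1.29 to -0.31), while *Foxi2* (-0.37, -0.79 to 0.05) and *Otx1* (-0.26, -0.63 to 0.10) had intervals that held 0. In the pharyngeal pouch and thyroid list, which bears on *Pax8*, *Pax1* and *Pax9*, 5 of 10 genes were lower, no interval left out 0 and the median was -0.01 (0.13 with the column headed Control as reference). *Hhex* (0.42, -0.04 to 0.89), *Foxi3* (0.41, -0.14 to 0.96) and *Nkx2-1* (-0.39, -0.89 to 0.11), which act in thyroid, pouch endoderm and ectoderm, and thyroid respectively, lay on both sides of 0. Over all 12 lists, 9 of the 143 genes stand on more than 1 list and are counted in each.

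**Figure D3:**
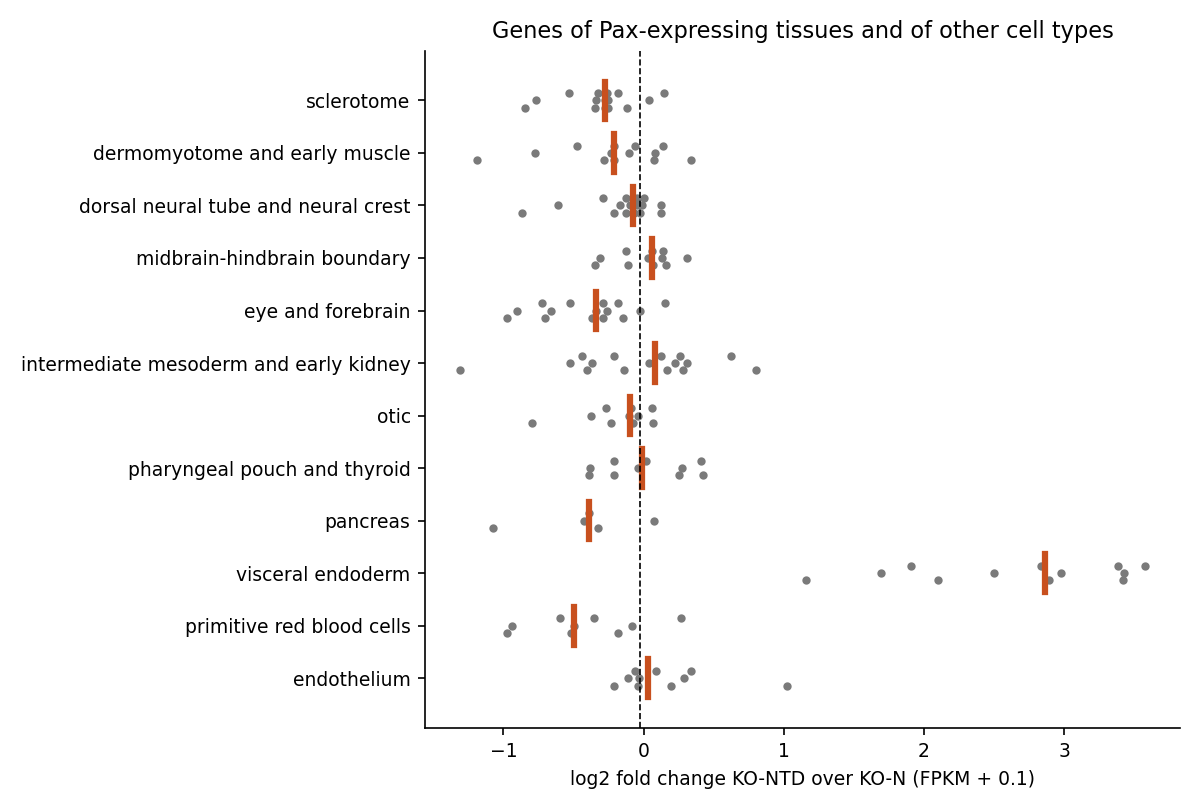
Log2 fold change, KO-NTD over KO-N (horizontal axis, of FPKM + 0.1) for each gene past the level filter (grey points) in 9 lists for tissues where Pax genes act and 3 lists for other cell types. Orange bars are list medians and the dashed line is the all-gene median of -0.02. Farthest to its left lie primitive red blood cells (-0.50), pancreas (-0.39), eye and forebrain (-0.34), sclerotome (-0.28), and dermomyotome and early muscle (-0.21). The median of visceral endoderm lies at 2.87.

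Genes of other cell types moved as well. All 12 visceral endoderm genes, which mark the absorptive layer of the yolk sac, were higher in KO-NTD with intervals above 0 and a median log2 fold change of 2.87 (1.04 with the column headed Control as reference). Their summed level was 149 FPKM in KO-NTD, 27.7 FPKM in KO-N and 66.7 FPKM in the column headed Control, and none was at 0. The list was written with earlier results of these data known. The study itself had reported *Apoa1*, *Apoa4*, *Apob*, *Amn* and *Cubn* as upregulated in KO-NTD. The count of 12 is therefore set in part by the choice of genes. *Apoa4*, *Slc2a2* and *Apoa1*, which encode apolipoproteins and, for *Slc2a2*, a glucose transporter, had folds of 3.58 (95% interval 2.94 to 4.22), 3.43 (2.69 to 4.17) and 3.42 (2.89 to 3.95). Of 9 genes of primitive red blood cells, 6 had intervals below 0 and none above, with a median of -0.50 and a summed level of 3048 FPKM in KO-NTD against 4663 FPKM in KO-N. *Hbb-y*, an embryonic globin gene, had a fold of -0.97 (-1.31 to -0.64), *Rhag* of -0.94 (-1.58 to -0.31) and *Alas2*, which starts haem synthesis, of -0.59 (-0.95 to -0.24). Of 10 endothelial genes, 2 had intervals above 0 and none below, with a median of 0.03. Among these, *Etv2*, an early regulator of the lineage, had a fold of 1.02 (0.47 to 1.58), *Tek* of 0.34 (0.02 to 0.67) and *Kdr* of 0.29 (-0.02 to 0.60). Visceral endoderm was thus the list farthest from the all-gene median. The part of these cell types in the Pax folds was not tested.

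With WT as the reference, all 4 members that had a WT value were lower in KO-NTD. Relative to WT, the KO-NTD level differed by -36.2% for *Pax1*, -32.7% for *Pax3*, -32.4% for *Pax6* and -26.9% for *Pax7*, with log2 fold changes of -0.64, -0.56, -0.56 and -0.43. Because WT values were given only for genes marked as differing from WT, this count is fixed in part by how the genes came to be listed. WT carried no bounds, so these folds have no interval.

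In KO-N, the same 4 genes lay nearer to WT by value and did not share a direction. The WT value lay within the KO-N bounds for each of them, so KO-N was not separated from WT. *Pax1* was 10.7% above WT, and *Pax3*, *Pax6* and *Pax7* differed from it by -13.2%, -13.4% and -11.0%. The log2 fold changes were 0.14, -0.20, -0.21 and -0.16. The KO-N and KO-NTD comparisons share the WT value. The 4 genes have a WT value only through the listing for KO-NTD against WT, so that KO-N lies nearer to WT than KO-NTD does is in large part set by that listing. By value alone, *Pax1* had KO-N as its highest group, and the other 3 had WT.

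**Figure D4:**
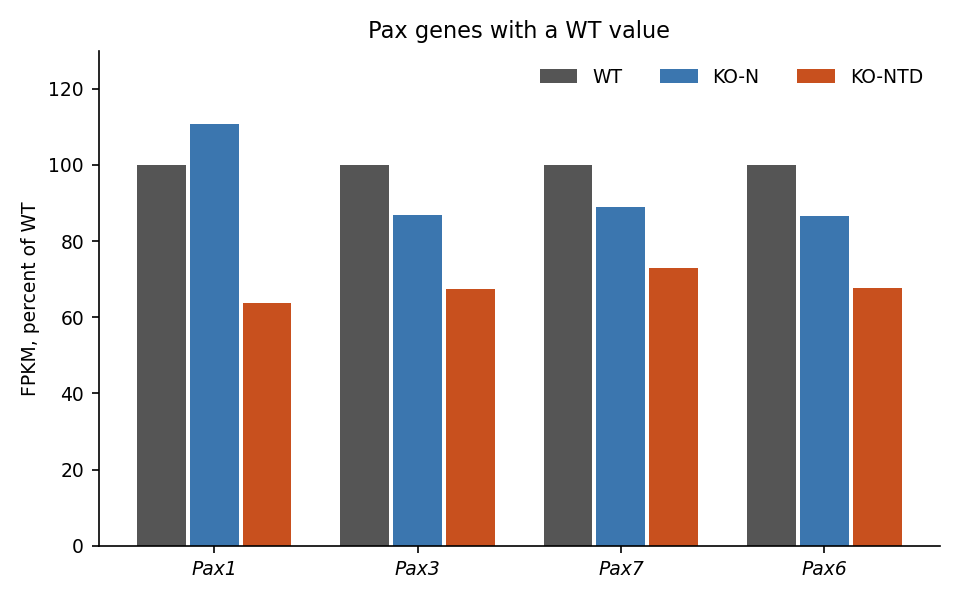
FPKM as a percent of WT (vertical axis, from 0) in WT, KO-N and KO-NTD for the 4 Pax genes with a WT value, 1 pooled value per bar and no error bar because WT has none. KO-NTD is the lowest bar for each gene, and KO-N is above WT for *Pax1* alone of these genes. Each WT value lies within the KO-N bounds, which are not drawn.

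The column headed Control lay near WT for these 4 genes, at -2.0% for *Pax1*, -2.8% for *Pax3*, -6.3% for *Pax6* and -4.7% for *Pax7*. It lay between WT and KO-N for *Pax3*, *Pax6* and *Pax7*, and under both for *Pax1*. With this column as the reference, the interval of KO-NTD lay below 0 for 3 of 8 members, against 2.12% of all genes, and above 0 for none, against 1.69%. The 3 were *Pax1* (-0.61, 95% interval -0.98 to -0.24), *Pax3* (-0.52, -0.87 to -0.18) and *Pax6* (-0.47, -0.93 to -0.01). *Pax7* had a fold of -0.37 (-0.78 to 0.05). For the members without a WT value the folds were small, at 0.03 (-0.51 to 0.56) for *Pax9*, 0.15 (-0.25 to 0.55) for *Pax2*, 0.06 (-0.61 to 0.72) for *Pax5* and 0.13 (-0.31 to 0.57) for *Pax8*. *Pax9* was at 1.84 FPKM in this column, *Pax2* at 2.97, *Pax5* at 2.50 and *Pax8* at 3.04 FPKM. This comparison and that with KO-N share the KO-NTD value. The libraries in the column headed Control are not known, so it may hold some of the knockout libraries. The intervals treat the 2 columns as independent.

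**Figure D5:**
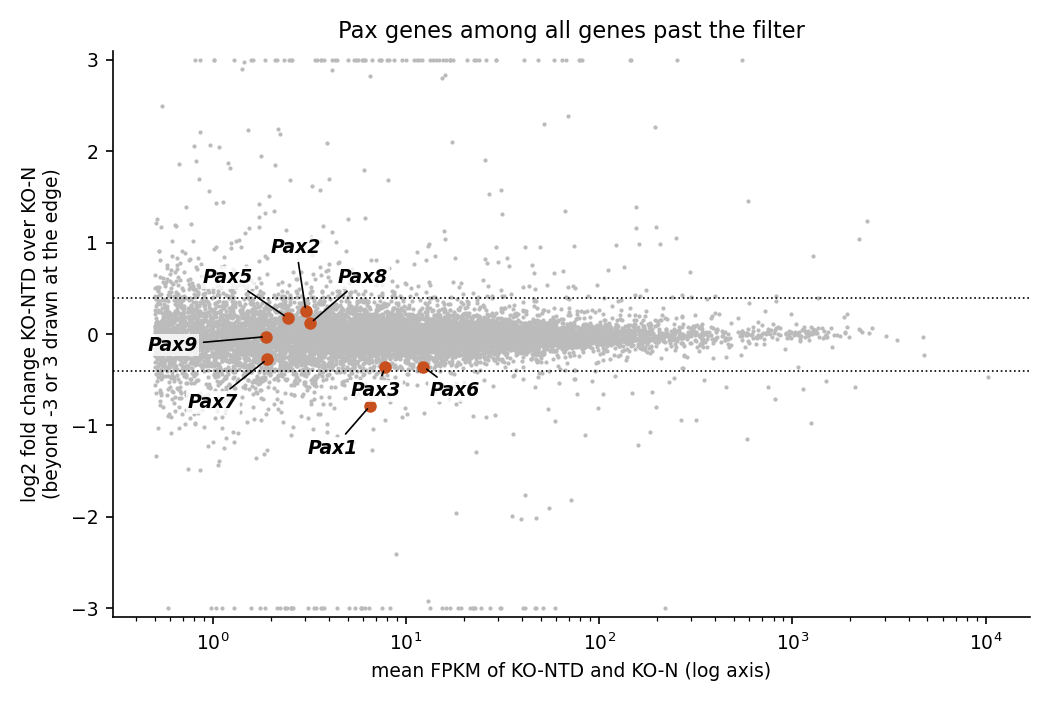
Mean FPKM of KO-NTD and KO-N (horizontal log axis) and log2 fold change, KO-NTD over KO-N (vertical axis) for the 13569 genes past the level filter (grey, with 126 genes beyond -3 or 3 drawn at the edge) and the 8 Pax genes among them (orange). Dotted lines mark -0.4 and 0.4; *Pax1* lies under the lower line, *Pax3* and *Pax6* just above it, and *Pax2*, *Pax5* and *Pax8* above 0.

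The precision of the values differed between members. At 1 FPKM or more, the upper bound stood above the value by a median of 17.6% in KO-NTD and 17.9% in KO-N over all genes. For *Pax1* it was 19.3% and 18.1%, for *Pax3* 17.9% and 17.2%, and for *Pax5*, the least precise of the members past the filter, 35.0% and 39.1%. The interval of the *Pax5* fold was accordingly the widest of these 8.

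The genes whose pattern over the 3 columns (Control, KO-N and KO-NTD) was most like a member's were sought among 12503 genes averaging 1 FPKM or more, by the distance between profiles of log2(FPKM + 0.1) centred for each gene. Nearest to *Pax1* were *Tubb3*, a tubulin gene of neurons, at a distance of 0.022, then *Snord15b* and *Crym*, which encodes a thyroid hormone-binding crystallin. *Tubb3* was at 13.4 FPKM in KO-NTD, 22.9 FPKM in KO-N and 20.1 FPKM in the column headed Control. Nearest to *Pax3* were *Mpped1* at 0.0057, *Zfp169* and Gm11149. Nearest to *Pax6* were *Cnp*, a myelin enzyme gene, at 0.012, then Gm10865 and *Tmem132c*. The likeness describes 3 values only, and no error was attached to the distances.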

How the data were processed

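Samples were grouped as WT, KO-N and KO-NTD from the genotype and title labels, with 9 libraries in all. Strand-specific poly-A libraries were sequenced as single-end reads of 50 bases. The authors mapped the reads to mm10 with TopHat2 0.7 and estimated abundance with Cufflinks 2.2.1, and the deposited values are FPKM, 1 per group, with confidence bounds in the table of all genes. The annotation they counted on is stated neither in the labels nor in the methods, and although the study lists read totals per library, the deposited FPKM do not carry them, so the bounds are the measure of precision used here. In the table of all genes the KO-N column is headed Ko, beside a separate NTD column, and holds the values that a comparison sheet names as normal KO. The deposited comparison sheets also hold the authors' fold changes, test values, p-values and q-values, which were not used. KO-NTD values of the sheet with WT were 1.0015 times those of the table of all genes (median of 786 genes), so the tables were scaled separately, and KO-N over WT folds cross them.

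Of 24357 rows, 27 whose gene names had turned into dates were left out. Genes averaging 0.5 FPKM or more over KO-N and KO-NTD were kept (13569 genes, of which 17 had no usable interval). Folds were log2((FPKM + 0.1)/(FPKM + 0.1)), which understates changes of low genes. The distance from a value to its upper bound was read as 2 standard deviations, and intervals are 1.96 standard errors on each side. A gene was called past a log2 fold of 0.4, or where its interval left out 0. No count test or replicate test was possible. The interval code was tested on simulated data.

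The genes named are the 9 Pax genes, the 3 genes of each list with the largest absolute fold among those at 1 FPKM or more, the 3 nearest profiles of *Pax1*, *Pax3* and *Pax6*, and *Scarb1*. Some genes that this rule selects are not reported here. Genes that share annotated sequence with a member are named in addition and were chosen after their values were seen. The members and the gene lists were chosen with earlier results of these data known. Coordinates and transcripts are from GENCODE M21, and *Pax* coding windows were compared without gaps. Python 3.11.15, numpy 2.4.6, pandas 2.3.3 and matplotlib 3.10.9 were used. Alternatives were other pseudocounts, centring, other filters and folds, another reading of the bounds, and the column headed Control in place of WT.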

Additional observations from a re-analysis of the deposited data

How the results depend on the processing

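Over 31 results, 140 alternatives were computed, and 131 of them kept the direction and the side of the threshold, or moved by little for counts and medians. With folds centred on the median of all genes, the *Pax3* fold between the knockout groups was -0.34 and its interval held 0, since centring shifts every fold by 0.02, and the number of members with an interval that left out 0 fell to 1. With a fold of at least 0.3 in place of 0.4, 3 members passed, *Pax3* and *Pax6* being added to *Pax1*. The *Pax7* fold of KO-NTD over WT, -0.43, no longer passed 0.4 with a pseudocount of 1 FPKM (-0.3032) or with the column headed Control as reference (-0.3667). With a pseudocount of 1 FPKM, the median fold of the visceral endoderm genes was 1.81, as a larger pseudocount shrinks folds of low genes. With the column headed Control in place of KO-N, an alternative chosen after seeing the data, list medians changed sign for the midbrain-hindbrain boundary (-0.06) and the pharyngeal pouch and thyroid (0.13), and that of the visceral endoderm was 1.04. The cause was not tested. No paired analysis was possible because each group has 1 pooled value. Leaving out a library was not run for the same reason, so a library that stands apart could not be seen. Intervals rest on the program's bounds and WT values lack bounds. For *Pax1*, *Pax2*, *Pax5*, *Pax6*, *Pax7*, *Pax8* and *Pax9* the interval reached more than 0.36 on either side of the fold. A log2 fold of the size seen for *Pax3* could not be told from 0 in them, and the fold of *Pax1* was larger in size.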
